A study of Mus musculus with 15 samples.

Results

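Transcription factors that mark positions between the back and the belly side of the developing neural tube were followed through spatially barcoded sections of mouse embryos. They are the 9 listed genes Pax3, Pax7 and Zic1 (dorsal), Pax6, Irx3 and Dbx1 (intermediate) and Olig2, Nkx2-2 and Nkx6-1 (ventral), out of 30534 features in 11 transcript tables. The members were taken by name, with no measured value used to pick them, although earlier results of these data were known. In the assay, barcodes were flowed over a frozen section through parallel channels in crossing directions, so that each crossing became a pixel with its own barcode pair. Pixels were 10, 25 or 50 µm wide. Libraries came from embryonic day 10 (E10) at 50 µm (n = 3), 25 µm (n = 1) and 10 µm (n = 2), from E11 at 25 µm (n = 2) and 10 µm (n = 2), and from E12 at 50 µm (n = 1). The labels call every sample mouse embryo and name no strain, genotype, sex or treatment, nor the body region in a section. They do not say whether libraries of a group came from different embryos, so p-values measure the spread between these sections, which may be technical.

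In the neural tube, Sonic hedgehog from the floor plate and WNT and BMP signals from the roof plate set up opposing gradients. Progenitors read these gradients through homeodomain, paired-domain and basic helix-loop-helix factors, and pairs of such factors repress each other so that their domains meet at sharp borders. Pax3, Pax7 and Zic1 mark dorsal progenitors. Pax6 and Irx3 cover the middle of the wall, and Dbx1 marks the progenitors of V0 interneurons next to the border between dorsal and ventral wall. Nkx6-1 covers the ventral progenitors, among which Olig2 marks those of motor neurons and Nkx2-2 those of V3 interneurons. Outside the spinal cord, Pax6 is also a forebrain and eye factor, Nkx6-1 and Nkx2-2 act in the pancreas, Pax3 and Pax7 in somites and neural crest, and Zic1 in forebrain and somites.

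Tissue pixels were those whose summed count was 0.1 or more of the 95th percentile in the library. That left 829 to 2271 tissue pixels and 1563489 to 11998765 counts per library, with a median of 843.5 to 11332 counts per pixel. Neural-rich pixels were the 25% of tissue pixels with the highest share of a 10-gene progenitor panel (Sox1, Sox2, Sox3, Nes, Fabp7, Hes5, Msi1, Pou3f2, Pou3f3 and Sox21) that holds none of the 9 factors. The panel reached 690 CPM (count per 1000000 counts) in the neural-rich pixels of E11 10 µm replicate 2, and 1200 to 3497.5 CPM in the other 10 libraries. That library stood apart: pixels outside its 306 neural-rich ones had no panel count, and it had no column for Dbx1 or Nkx2-2, which were taken as 0. Genes that mark body regions also differed between sections. Summed trunk Hox genes were at 422 and 513 CPM at E11 25 µm, 35.8 to 144 CPM at E10 50 µm and at most 0.833 CPM in the E10 sections at 10 and 25 µm. Summed forebrain markers were at 24.9 and 37.0 CPM at E11 25 µm and at 274 to 579 CPM in the E10 sections at 10 and 25 µm. E11 10 µm replicate 1 was nearer to the latter, with 244 CPM of forebrain markers and 1.56 CPM of trunk Hox, and replicate 2 was at 48.1 and 38.3 CPM.

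On the mouse assembly GRCm38 with GENCODE M21 genes, the factors lie on 8 chromosomes: Pax3 at chr1:78101267-78197134 (minus strand), Pax7 at chr4:139737062-139833528 (minus strand), Zic1 at chr9:91358058-91365810 (minus strand), Pax6 at chr2:105668900-105697364 (plus strand), Irx3 at chr8:91798525-91802067 (minus strand), Dbx1 at chr7:49631499-49636849 (minus strand), Olig2 at chr16:91225457-91228677 (plus strand), Nkx2-2 at chr2:147177546-147194243 (minus strand) and Nkx6-1 at chr5:101658139-101664996 (minus strand). The submitters' processing notes name GRCh38, a human build, so the build behind the counts could not be settled, and the positions serve only to place the genes. Zic1 overlaps Zic4, Pax6 overlaps Pax6os1, Irx3 overlaps Irx3os, and Nkx2-2 overlaps Nkx2-2os and 6430503K07Rik, each on the opposite strand. Whether counting used strand was not stated, so counts of those 4 factors may hold reads of a partner. RefSeq promoter windows of 300 bases (GRCm38.p6, 250 before to 50 after the start) were matched for 8 of the 9 factors, and Pax3 had no entry. They were searched on both strands for 7 letter motifs. These were TGGGTGGTC as bound by GLI factors, TAATTA as bound by many homeodomain factors, AACAAT for SOX factors, CTTTGAT for TCF factors, the TATA box letters TATAAA, and, for basic helix-loop-helix factors, the E-box CAGCTG and the variant E-box with the letters CATATG. Shown are the factors that ended up on opposite sides of the tissue in these data, Pax7 against Olig2 and Nkx6-1, and Dbx1 from between them. Capitals mark the matches: the SOX letters, read on the opposite strand, and the TATA box letters in Olig2, and the TATA box letters alone in Dbx1.
Pax7, chr4:139832919-139833218, minus strand: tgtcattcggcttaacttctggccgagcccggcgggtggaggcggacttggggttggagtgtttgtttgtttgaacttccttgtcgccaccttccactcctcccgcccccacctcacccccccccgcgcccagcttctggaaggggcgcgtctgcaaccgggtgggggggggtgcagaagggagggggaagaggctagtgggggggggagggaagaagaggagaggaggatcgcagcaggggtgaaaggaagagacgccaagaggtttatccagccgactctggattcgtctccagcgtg
Dbx1, chr7:49636786-49637085, minus strand: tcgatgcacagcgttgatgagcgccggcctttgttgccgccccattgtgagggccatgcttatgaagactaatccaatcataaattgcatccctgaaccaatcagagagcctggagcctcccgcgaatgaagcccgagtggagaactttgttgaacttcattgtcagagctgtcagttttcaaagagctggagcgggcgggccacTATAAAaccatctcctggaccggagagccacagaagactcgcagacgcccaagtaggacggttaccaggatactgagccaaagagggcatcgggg
Olig2, chr16:91225300-91225599, plus strand: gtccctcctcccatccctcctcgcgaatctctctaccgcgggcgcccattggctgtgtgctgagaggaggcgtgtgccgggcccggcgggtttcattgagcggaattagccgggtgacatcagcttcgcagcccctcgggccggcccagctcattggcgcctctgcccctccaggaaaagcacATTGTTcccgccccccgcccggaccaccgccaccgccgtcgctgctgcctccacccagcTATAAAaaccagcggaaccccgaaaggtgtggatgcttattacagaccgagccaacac
Nkx6-1, chr5:101664662-101664961, minus strand: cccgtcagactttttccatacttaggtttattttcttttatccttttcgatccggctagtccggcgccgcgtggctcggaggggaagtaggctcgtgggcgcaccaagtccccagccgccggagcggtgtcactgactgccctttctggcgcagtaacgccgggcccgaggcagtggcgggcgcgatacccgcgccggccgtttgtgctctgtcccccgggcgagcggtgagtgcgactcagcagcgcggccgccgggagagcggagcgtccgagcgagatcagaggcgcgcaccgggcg
The Pax7 and Nkx6-1 windows held none of these letters, and were 63.7% and 67.3% G and C against a median of 52.7% over all 32851 promoters. TATAAA was present in 13.6% of all promoters and AACAAT in 10.7%. TGGGTGGTC occurred in 0.253% of them and TAATTA in 5.29%, and neither was in a window of the 8 factors.

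Among the dorsal factors, Pax3, a paired-box factor of dorsal progenitors, neural crest and somites, was at 77.02, 67.5 and 67.3 CPM in the 3 E10 50 µm libraries and at 28.8 CPM at E10 25 µm. It was at 13.2 and 0.755 CPM at E10 10 µm, 44.0 and 49.6 CPM at E11 25 µm, 18.3 and 3.65 CPM at E11 10 µm and 13.4 CPM at E12. The 3 E10 50 µm libraries were thus the highest, the 2 of E11 at 25 µm next, and replicates at 10 µm were far apart. Pax7, its close relative, was at 20.003, 10.1 and 20.5 CPM (E10 50 µm), 5.12 (E10 25 µm), 0.833 and 1.32 (E10 10 µm), 12.8 and 12.8 (E11 25 µm), 16.3 and 0.365 (E11 10 µm) and 6.31 (E12). Its order resembled that of Pax3, but neighbours in it overlap. Zic1, a zinc-finger factor of the dorsal neural tube, was at 180, 175 and 154 CPM (E10 50 µm), 210 (E10 25 µm), 145 and 191 (E10 10 µm), 32.8 and 70.9 (E11 25 µm), 49.8 and 11.7 (E11 10 µm) and 34.9 (E12). All 6 E10 libraries were above all 5 later ones.

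Of the intermediate factors, Pax6 was at 80.5, 99.3 and 206 CPM (E10 50 µm), 182 (E10 25 µm), 71.8 and 206 (E10 10 µm), 240 and 127 (E11 25 µm), 192 and 2.55 (E11 10 µm) and 9.54 (E12). Except in E11 10 µm replicate 2 and at E12 it stayed between 71.8 and 240 CPM, and the groups overlapped. Irx3, an Iroquois homeodomain factor, was at 36.3, 33.3 and 45.4 CPM (E10 50 µm), 21.1 (E10 25 µm), 19.3 and 8.30 (E10 10 µm), 44.2 and 40.4 (E11 25 µm), 23.0 and 1.82 (E11 10 µm) and 13.1 (E12). Dbx1 was at 37.7, 2.86 and 36.6 CPM (E10 50 µm), so that 1 of 3 replicates was more than 10 times below the others. It was at 5.72 and 8.08 CPM at E11 25 µm, at 8.95 CPM in E11 10 µm replicate 1, at 1.23 to 1.75 CPM in the remaining E10 and E12 libraries, and E11 10 µm replicate 2 had no column for it.

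Of the ventral factors, Olig2 was at 8.72, 7.15 and 13.4 CPM (E10 50 µm), 5.76 (E10 25 µm), 9.001 and 8.49 (E10 10 µm), 8.49 and 6.51 (E11 25 µm), 12.8 and 1.09 (E11 10 µm) and 0.923 (E12). The other 9 libraries than E11 10 µm replicate 2 and E12 lay between 5.76 and 13.4 CPM and could not be ordered. Nkx2-2 was the sparsest member, with 211 counts in all and levels of 2.56, 1.31 and 5.92 CPM (E10 50 µm), 7.68 (E10 25 µm), 4.0004 and 0.377 (E10 10 µm), 2.76 and 3.39 (E11 25 µm), 1.56 (E11 10 µm replicate 1, with no column in replicate 2) and 0.308 (E12). Nkx6-1 was at 27.3, 10.0 and 84.9 CPM (E10 50 µm), 32.6 (E10 25 µm), 19.8 and 11.5 (E10 10 µm), 65.9 and 42.2 (E11 25 µm), 10.1 and 3.28 (E11 10 µm) and 10.8 (E12). Its E10 50 µm replicates spanned most of the range seen in all libraries. Counts were summed over each section, so fewer cells of a type and less RNA per cell cannot be told apart.

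**Figure D1:**
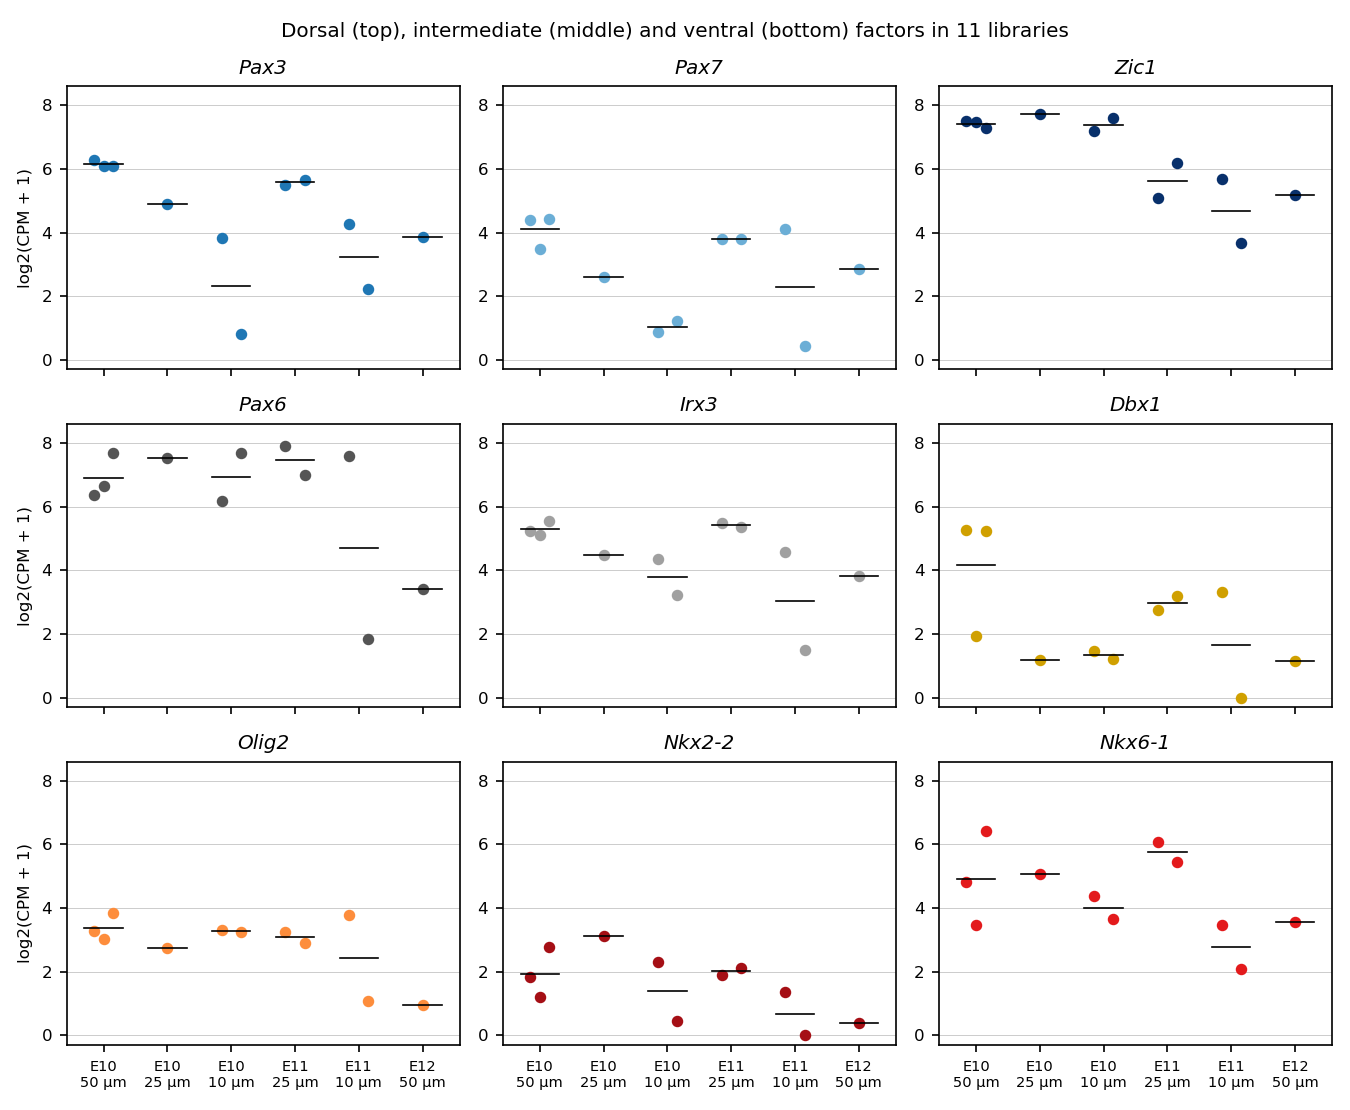
Level of each factor in 11 libraries as log2(CPM + 1) (vertical axis), by stage and pixel width (horizontal axis). Points are libraries and bars are group means of the log2 values; Zic1 is the factor whose 6 E10 libraries all lie above the 5 later ones, and the lower of the E11 10 µm points is replicate 2, which held few progenitor transcripts.

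Differences between groups were judged by edgeR's quasi-likelihood F test on library sums, fitted to all 11 libraries and 18233 genes, with p adjusted by Benjamini-Hochberg over all genes. Between E10 and E11, over 10 and 25 µm, Zic1 was lower at E11 by a log2 fold change of -2.15 (SE 0.41, adjusted p = 0.0206), with means of 41.3 and 182 CPM and no overlap between the 4 and 3 libraries. It was the only one of 9 factors called, where 3.6% of all tested genes were called (1.67% lower). The median log2 fold change was 0.11 over the factors and 0.05 over all genes. The call on Zic1 was lost without E11 25 µm replicate 1 (log2 fold change -1.94, adjusted p = 0.0947). Pax7 had a log2 fold change of 2.24 that was not called (adjusted p = 0.150). Without E11 10 µm replicate 2, both Pax7 (2.73, adjusted p = 0.00595) and Zic1 (-1.81, adjusted p = 0.0135) were called, and without E11 10 µm replicate 1 the value of Pax7 was 0.05 and Pax6 was called beside Zic1 (-2.76, adjusted p = 0.0221). Without E10 10 µm replicate 1, Pax3 was called beside Zic1 (2.37, adjusted p = 0.0425). In the same contrast 3 of 7 trunk Hox genes were higher and 3 of 8 forebrain genes lower at E11, Hoxc9 among the former, so stage and body region cannot be told apart over all 4 E11 libraries. In E11 10 µm replicate 1, whose region markers were nearer to those of the E10 sections at these pixel widths, Zic1 was at 49.8 CPM against 145 to 210 CPM in the 3 E10 libraries. Its region was not matched: forebrain markers were at 244 against 274 to 579 CPM. Its roof plate and dorsal list was at 245 against 313 to 497 CPM. The part of body region in its Zic1 level was not tested. In the contrast of E11 with E10, 2 of the 17 other roof plate and dorsal genes were lower, and none of 14 floor plate and ventral genes was called.

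Between E12 and E10 at 50 µm, none of the 9 factors was called by edgeR, where 2.14% of genes were, although the median of the factors was -2.44 against -0.04 for all genes. Zic1 and Olig2 had an unadjusted p under 0.05 there, and DESeq2 called both. All 9 were at lower mean CPM at E12, which was 1 library with 432.8 CPM of the progenitor panel against 1557 to 2392 CPM in the 3 E10 libraries; the part of that difference in the result was not tested. The count rose to 3 (Zic1, Pax6 and Olig2) without E11 10 µm replicate 1 or replicate 2. Sections of different pixel width also differed in trunk Hox genes, so width and body region cannot be told apart. These genes were at 422 and 513 CPM at E11 25 µm and at 1.56 and 38.3 CPM at E11 10 µm. They were at 35.8 to 144 CPM at E10 50 µm and at most 0.833 CPM at E10 10 µm. Between 10 and 25 µm at E11, 0 of 9 factors were called (2.07% of genes called, 2 factors at unadjusted p under 0.05, 0 by DESeq2). Between 10 and 50 µm at E10, 0 of 9 were called (0.11% of genes, 3 factors at unadjusted p under 0.05, 1 by DESeq2). Without E11 10 µm replicate 1 the first of these counts rose to 4 (Pax7, Zic1, Pax6 and Irx3, all lower at 10 µm), and without E10 50 µm replicate 3, E10 10 µm replicate 1 or E10 10 µm replicate 2 it rose to 1 (Nkx6-1 in the first case, Pax3 in the others). The second count rose to 1 without E10 10 µm replicate 1 (Pax3) or without either E11 10 µm replicate (Pax7). The change from E10 to E11 did not differ detectably between 10 and 25 µm for any factor (adjusted p from 0.727 to 0.973, with 25 of 18233 genes called).

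The factors were next compared between neural-rich and other tissue pixels of the same libraries, with the library as a block. Pax3 ran from 0 to 132 CPM in neural-rich pixels (median 41.5) and from 0.777 to 58.8 CPM elsewhere (median 21.97). It was higher in neural-rich pixels of 9 of 11 libraries, with a log2 fold change of 1.17 (SE 0.17, adjusted p = 0.00092). Pax7 was at 0 to 34.2 CPM in neural-rich pixels and 0.462 to 19.2 CPM elsewhere, higher in 8 of 11 libraries (1.19, SE 0.22, adjusted p = 0.00222). Pax6 was at 3.48 to 584 CPM in neural-rich pixels and 2.31 to 192 CPM elsewhere. It was higher in 11 of 11 libraries, but was not called by edgeR (1.22, adjusted p = 0.0647) and was by DESeq2 (adjusted p = 0.00775). Of 7 factors tested, 2 were thus higher, where 6.77% of 12542 genes were higher. The median of the tested factors was 0.86 against 0.02 for all genes. Dbx1 and Nkx2-2 were too sparse for this test. The 5 mesenchyme genes and 5 red cell genes on fixed lists were all lower in neural-rich pixels, and 4 of 4 trunk Hox genes tested were higher. Genes of the neural crest, whose cells are also known to express Pax3 and Pax7, summed to 41.0 to 290 CPM in neural-rich and 38.3 to 188 CPM in other pixels, higher in 10 of 11 libraries, and 1 of 4 tested was called (Ednrb, 0.90); their part in the result was not tested. Pax3 and Pax7 were called in 11 of 11 fits that left out a library, E11 10 µm replicate 2 included, and neither was called without the library block. Irx3 joined them without the E12 library (0.43, adjusted p = 0.0313).

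Most factors were patchy. Moran's I, which is near 0 when a gene's level in a pixel is unrelated to that in the 4 adjoining pixels, had a median over all genes of 0.0087 to 0.0205 per library. For Pax6 it ran from 0.127 to 0.746 (median 0.350) and was at or above the 97.1th percentile of genes in all 10 libraries where Pax6 was in at least 1% of tissue pixels. The highest values, 0.746 and 0.681, came from the 2 E11 25 µm sections. Zic1 passed the 95th percentile in 10 of 11 libraries, Pax3 in 8 of 9, Olig2 in 6 of 8 and Nkx6-1 in 6 of 10. Irx3 did so in 3 of 10, Dbx1 in 2 of 6, Pax7 in 1 of 7 and Nkx2-2 in 0 of 5, with a highest value of 0.0899.

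Dorsal and ventral factors were found in the same neural-rich pixel less often than their shares predict. For each of the 36 pairs, the number of pixels with both was divided by the number expected from the separate shares within 5 strata of depth per library, then pooled over libraries. All 9 dorsal with ventral pairs had a ratio below 1 (0.525 to 0.980), and all 6 pairs within the dorsal or within the ventral factors were above 1 (1.06 to 1.77). Ratios on either side of 1 are common: of all genes paired with Pax3, Pax7 and Zic1, 47.3%, 41.3% and 40.7% were below 1. With Olig2, Nkx2-2 and Nkx6-1 these shares were 30.4%, 40.2% and 38.0%, so most genes were above 1 with a ventral factor. A pixel holds more than a single cell at 25 and 50 µm, so a shared pixel is not a shared cell. Pixels are not replicates, and these ratios carry no test. With each pixel thinned to 1000 counts, 9 of 9 and 5 of 6 pairs kept these sides. Thinning left Nkx2-2 in at most 0.825% and Pax7 in at most 1.84% of tissue pixels in any library. Few shared pixels were then expected for their pairs, so a ratio below 1 carries little weight there.

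Pax3 and Nkx6-1 shared 116 pixels where 180 were expected, a ratio of 0.643, which ranged from 0.165 to 1.00 in the 7 libraries expecting at least 1 shared pixel and was below 1 in 6 of them. Pax3 and Olig2 shared 27 pixels against 51.5 expected (0.525, below 1 in 5 of 6 libraries). Pax7 and Nkx6-1 shared 46 against 78.0 (0.590, below 1 in 5 of 6). Percentiles among all genes were read over libraries where the partner was in at least 1% of tissue pixels. Pax3 had its ratio with Olig2 at the 0.461st percentile and that with Nkx6-1 at the 1.39th percentile of 15200 genes, whose median ratio was 1.00. Pax7 with Nkx6-1 was at the 1.15th and with Olig2 at the 1.78th percentile of Pax7 ratios. Other pairs were ordinary: Pax7 with Nkx2-2 was at the 20.7th percentile, Zic1 with Olig2 at the 20.9th and Zic1 with Nkx2-2 at the 16.8th. At E11 25 µm the low sharing was seen in both sections. There Pax3 and Nkx6-1 shared 5 pixels where 30.2 were expected in replicate 1 and 19 where 42.7 were expected in replicate 2, and Pax3 and Olig2 shared 0 against 7.32 and 3 against 10.5. Pixels with Pax3 or Pax7 together with a ventral factor numbered 45 of 215, 12 of 208 and 61 of 210 neural-rich pixels in the E10 50 µm sections, and 7 of 426 and 22 of 376 at E11 25 µm. Replicate 2 at E10 50 µm was thus like replicate 2 at E11 25 µm, and the other E10 50 µm sections were higher. These counts have no expected number beside them, and the share of neural-rich pixels with Nkx6-1 differed as well. It was 25.6%, 6.73% and 57.1% in the E10 50 µm sections and 27.9% and 33.0% at E11 25 µm.

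Zic1 was the dorsal factor whose ratio was nearest to 1 with each ventral factor: 0.790 with Nkx6-1 (below 1 in 7 of 8 libraries), 0.939 with Nkx2-2 and 0.980 with Olig2. The last of these was above 1 in 6 of 9 libraries. Against all genes, however, Zic1 with Nkx6-1 was at the 1.65th percentile of Zic1 ratios, whose 5th percentile was 0.883. Without E11 25 µm replicate 2, the ratios of Zic1 with Olig2 and Nkx2-2 rose to 1.08 and 1.03, so that 7 of 9 pairs stayed below 1. Leaving out any other library, E11 10 µm replicate 2 included, kept 9 of 9 below 1. Nkx2-2 was also rarely found with Pax6, in 24 pixels against 41.9 expected (0.573, below 1 in 6 of 7 libraries). Over the libraries used for percentiles, the ratio was 0.613, the 0.525th percentile of Pax6 ratios. Read from Nkx2-2 it was 0.573, the 1.76th percentile of Nkx2-2 ratios.

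Some same-side pairs met more often than predicted. Pax3 and Pax7 shared 163 pixels against 114 expected (1.43, and from 1.01 to 2.63 in 6 of 6 libraries), the 99.7th percentile of Pax3 ratios. Nkx6-1 and Nkx2-2 shared 41 against 23.2 (1.77, above 1 in 4 of 5 libraries), and Nkx6-1 and Olig2 shared 61 against 39.6 (1.54, above 1 in 3 of 6). Over the libraries used for percentiles, these ratios were 1.61 and 1.52, the 99.5th and 99.1st percentiles of Nkx6-1 ratios. Pax7 and Zic1 were at 1.06, below 1 in 4 of 7 libraries and at the 68.6th percentile of Pax7 ratios. Olig2 and Nkx2-2 shared 8 pixels, at the 45.8th percentile of Olig2 ratios. The intermediate factors varied by partner. Irx3 was with Dbx1 at 1.29 (above 1 in 5 of 5 libraries) and with Pax7 at 1.24 (6 of 6), but with Olig2 at 0.717 (below 1 in 5 of 6). Pax6 was close to 1 with Zic1 (1.01), Pax7 (1.07) and Pax3 (1.08) and lower with Nkx6-1 (0.871, below 1 in 8 of 9 libraries). With the dorsal factor Zic1, however, Irx3 was at 0.956 (below 1 in 8 of 10) and Dbx1 at 0.880 (below 1 in 5 of 6). With ventral partners Irx3 was at 0.931 for Nkx6-1 (below 1 in 3 of 7) and Dbx1 at 0.908 for Nkx2-2 (below 1 in 1 of 3), so dorsal partners were not set apart from ventral ones throughout.

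**Figure D2:**
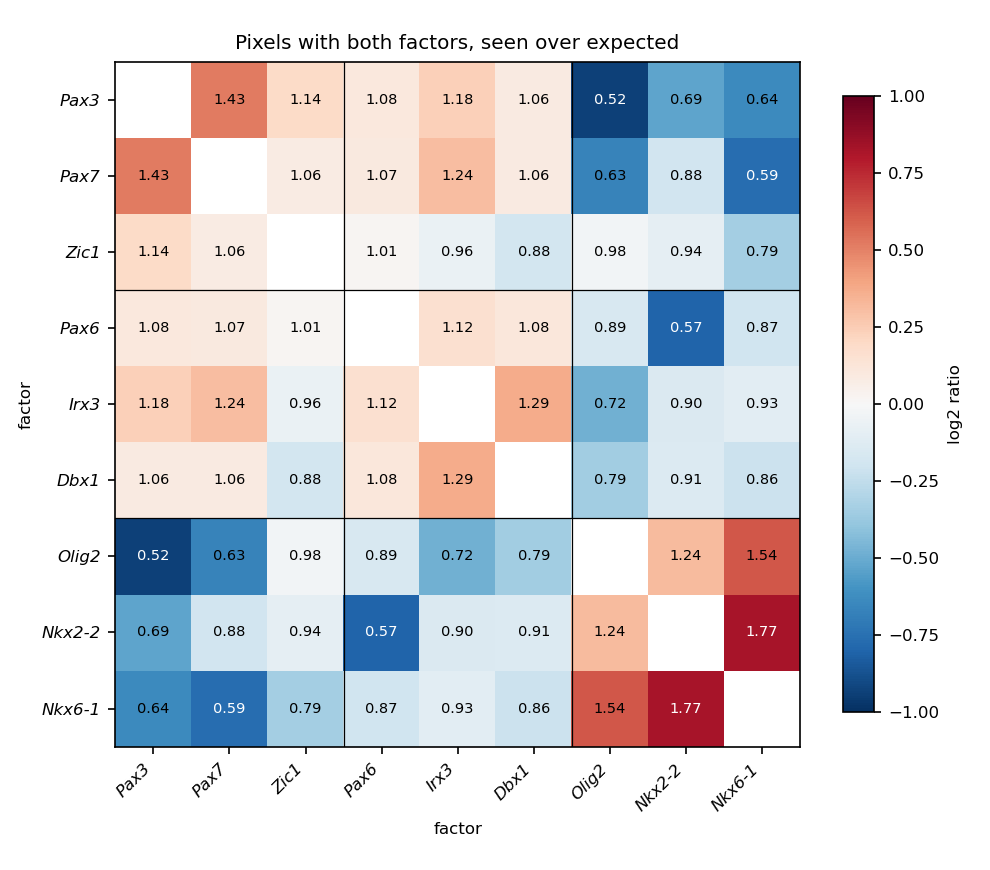
Neural-rich pixels that hold both factors, divided by the number expected within depth strata and pooled over libraries; colour is the log2 of the ratio printed in each square, and lines part the dorsal, intermediate and ventral factors. The 9 dorsal with ventral squares lie below 1 and the 6 same-side squares above 1, with Nkx2-2 and Nkx6-1 the highest at 1.77.

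Next, neural-rich pixels of a dorsal class (Pax3 or Pax7, with no ventral factor) were compared with those of a ventral class (Olig2, Nkx2-2 or Nkx6-1, with neither Pax3 nor Pax7). Over 9 libraries with at least 10 pixels in each, the classes held 533 and 466 pixels, and 160 further pixels had factors of both kinds. The 5 factors that make the classes are no finding. Of the 4 others, Irx3 ran from 9.80 to 123 CPM in the dorsal class (median 58.0) and from 0 to 56.7 CPM in the ventral class (median 19.8). It was higher in the dorsal class in 7 of 9 libraries (log2 fold change 1.02, SE 0.24, adjusted p = 0.0179), where 0.488% of 6758 genes were higher and 1.14% called. The exceptions were E10 50 µm replicate 3 and E12. The call was lost without E10 50 µm replicate 1 (adjusted p = 0.0545), E11 25 µm replicate 1 (0.0741) or E11 25 µm replicate 2 (0.179), with a log2 fold change of at least 0.90 in each. Without E10 50 µm replicate 3, Pax6 was called too (0.56, adjusted p = 0.0482). Zic1 was higher in 8 of 9 libraries without passing the test (1.12, adjusted p = 0.391). At E11 25 µm it was at 74.8 and 189 CPM in the dorsal class against 14.97 and 15.8 CPM in the ventral class. Pax6 had a log2 fold change of 0.38 (adjusted p = 0.235), and Dbx1 was too sparse to test.

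Other genes of the axis differed between these classes. The 5 largest changes towards the dorsal class were Msx3, a homeobox gene of the dorsal tube (2.77, adjusted p = 2.37e-13), Draxin, a guidance factor (2.16), Gas1, a hedgehog co-receptor (1.83), Irx2 (1.76) and Fzd10, a WNT receptor (1.71). Towards the ventral class they were Spon1, a matrix protein of the floor plate (-2.57, adjusted p = 8.84e-16), Ntn1, the floor plate guidance cue netrin (-1.61), Kbtbd11 (-1.60), Tox2 (-1.35) and Scrn1 (-1.33). Of the fixed lists, 2 of the 2 floor plate and ventral genes tested were lower in the dorsal class (Ntn1 and Ptch1, the hedgehog receptor and target, -0.94), and 12 further genes of the list were too sparse. Of 4 roof plate and dorsal genes tested, Zic5 was higher (1.42) and the others were not called. Of 3 intermediate genes tested, Gli3, a hedgehog-pathway repressor, was higher (0.92). No gene of the 10-gene progenitor panel was called, and median depth was 0.730 to 1.78 times that of the ventral class across libraries (median 0.991). Tfap2b, which also marks neural crest, was higher in the dorsal class (1.71), and 1 of 4 mesenchyme genes, Col3a1, was lower (-0.60); their part in the result was not tested.

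Pixels with a given factor were then compared with neural-rich pixels without it, so that the exclusion could be tested over libraries. In Pax3-positive pixels Nkx6-1 was at 0 to 72.8 CPM (median 16.5), against 10.1 to 222 CPM (median 21.0) in Pax3-negative ones. It was lower in 8 of 9 libraries (-1.74, SE 0.21, adjusted p = 1.11e-05). In the same pixels Pax7 (1.81, adjusted p = 2.61e-08, higher in 8 of 9) and Irx3 (0.73, adjusted p = 0.0188, higher in 7 of 9) were higher, where 1.55% of genes were called. The Irx3 call was lost with DESeq2 (adjusted p = 0.196) and with the top 10% of pixels as neural-rich (0.665), where Zic1, not called here (0.73, adjusted p = 0.0821), was called (0.0188 and 0.0015). Pax6 did not pass the test and its change was 0.00. In Pax7-positive pixels Nkx6-1 was lower too (-1.51, adjusted p = 3.99e-07, lower in 5 of 6 libraries; 0.396% of genes called). This call was lost with the top 10% of pixels (-0.85, adjusted p = 0.9999). From the ventral side, Pax7 was lower in Nkx6-1-positive pixels (-1.20, adjusted p = 0.0173, lower in 7 of 7; 1.02% called). Pax3 was lower there in 7 of 7 libraries as well without passing the test (-1.41, adjusted p = 0.160). The Pax7 call was lost with DESeq2 (adjusted p = 0.251) and the top 10% (0.447), while Pax3 was called with the top 10% (1.95e-07) and the top 50% (0.0267). Pax3 was lower in Olig2-positive pixels (-1.22, adjusted p = 0.00735, lower in 7 of 7; 0.14% called). The tests from either side of a pair read the same pixels, so they are not independent of each other.

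Between the ends of the axis, Dbx1-positive pixels, counted in 4 libraries, had more Irx3 (0.86, adjusted p = 0.0022, higher in 4 of 4) and less Nkx6-1 (-1.20, adjusted p = 6.68e-08) and Zic1 (-0.96, adjusted p = 4.76e-07), both lower in 4 of 4 (0.203% of genes called). Nkx2-2-positive pixels, 49 in 3 libraries, had less Pax6 (-1.68, adjusted p = 9.05e-07, lower in 3 of 3; 0.108% called). Zic1-positive pixels had more Pax3 (0.85, adjusted p = 0.000951, higher in 9 of 10; 0.118% called). Irx3-positive pixels differed in no factor by edgeR (0.0948% called), and the factor nearest to the threshold was Pax7 (0.93, adjusted p = 0.0510); 4 factors had an unadjusted p under 0.05 there and 0 were called by DESeq2. DESeq2 did not call the factors named here for Zic1-, Dbx1-, Olig2- and Nkx2-2-positive pixels. The Dbx1 calls were also lost with the top 10% of pixels and the Nkx2-2 call with the top 50%. Pixels with a factor were deeper than those without in nearly all libraries, for example by a median of 1.55 times for Pax3 and 1.38 times for Nkx6-1; the part of depth in these results was not tested beyond the thinned and stratified ratios above. In Pax3-positive pixels 4 of 5 heart muscle and 2 of 5 mesenchyme genes were lower and 1 of 3 neural crest genes tested was higher, and in Pax7-positive pixels 3 of 5 mesenchyme genes were lower; their part was not tested. In Nkx6-1-positive pixels none of the 5 genes on either list was called by edgeR (0 at an unadjusted p under 0.05).

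**Figure D3:**
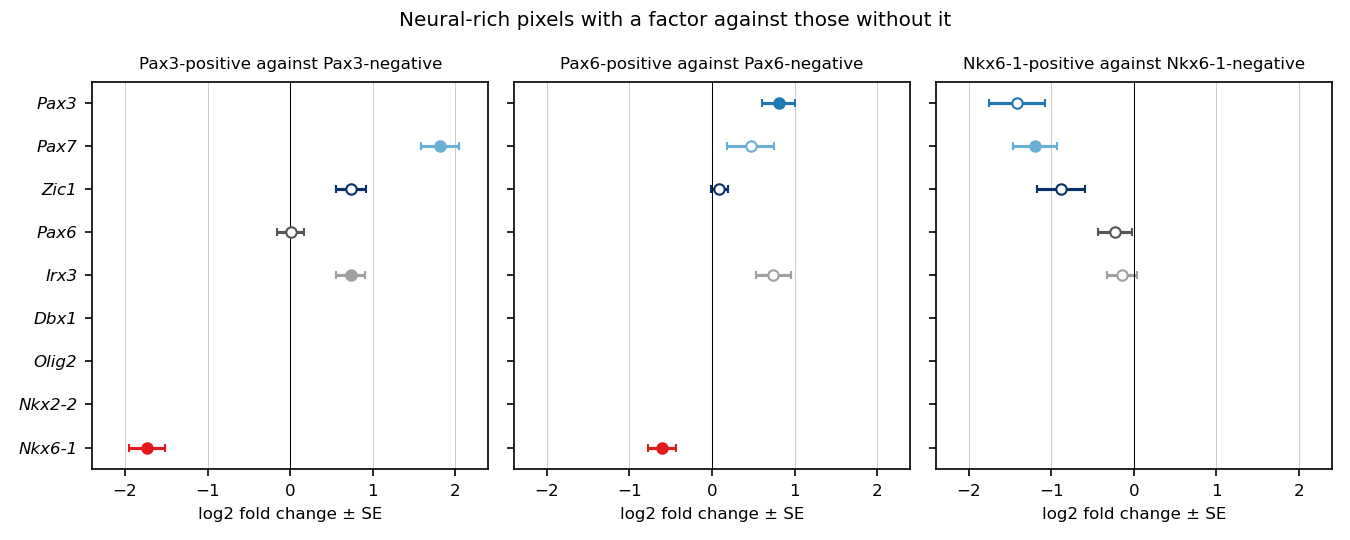
Log2 fold change with its standard error (horizontal axis) of each factor (vertical axis) in neural-rich pixels with Pax3, Pax6 or Nkx6-1 against those without, over 9, 10 and 7 libraries. Filled points passed an adjusted p of 0.05 in edgeR, open points did not, and factors with no point were the compared factor or too sparse; Nkx6-1 lies at -1.74 in Pax3-positive pixels, and all dorsal factors lie below 0 in Nkx6-1-positive pixels.

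At E11 25 µm, Pax6 formed 1 connected domain in each section. Domain pixels had a Pax6 count and at least 2 of 8 neighbours with one. The domain covered 276 of 1704 tissue pixels in replicate 1 and 241 of 1504 in replicate 2. It took in 80.5% of 343 Pax6-positive tissue pixels in replicate 1 and 80.9% of 298 in replicate 2. Its share of Pax6 counts, 93.8% of 1217 and 94.0% of 977, is high in part by construction, as only pixels with a Pax6 count could enter it. It was a band along the curved outer edge of the tissue, 84.1% and 87.6% of it neural-rich. Trunk Hox genes summed to 788 and 895 CPM in it against 285 and 369 CPM outside, while the 8 forebrain markers summed to 9.41 and 6.68 CPM and the 7 eye markers to 0.724 and 3.34 CPM. Among these markers Six3, Emx1, Dlx1, Rax, Six6, Pmel, Dct and Tyrp1 were at 0 in both domains. The domain was also deeper, with a median of 4861.5 against 2194.5 counts per pixel outside in replicate 1 and 8026 against 3662 in replicate 2. Heart muscle genes summed to 213 and 217 CPM in it against 3012 and 2733 CPM outside, and mesenchyme genes to 140 and 93.1 CPM against 1072 and 1375 CPM. Somite and muscle genes, which would mark another source of Pax3 and Pax7, summed to 11.6 and 10.0 CPM inside and 47.5 and 34.9 CPM outside, and neural crest genes to 117 and 173 CPM inside and 74.1 and 89.4 CPM outside; their part in the levels below was not tested. The 2 sections cover much the same grid, with 153 domain pixels in common (55.4% and 63.5% of the domains).

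**Figure D4:**
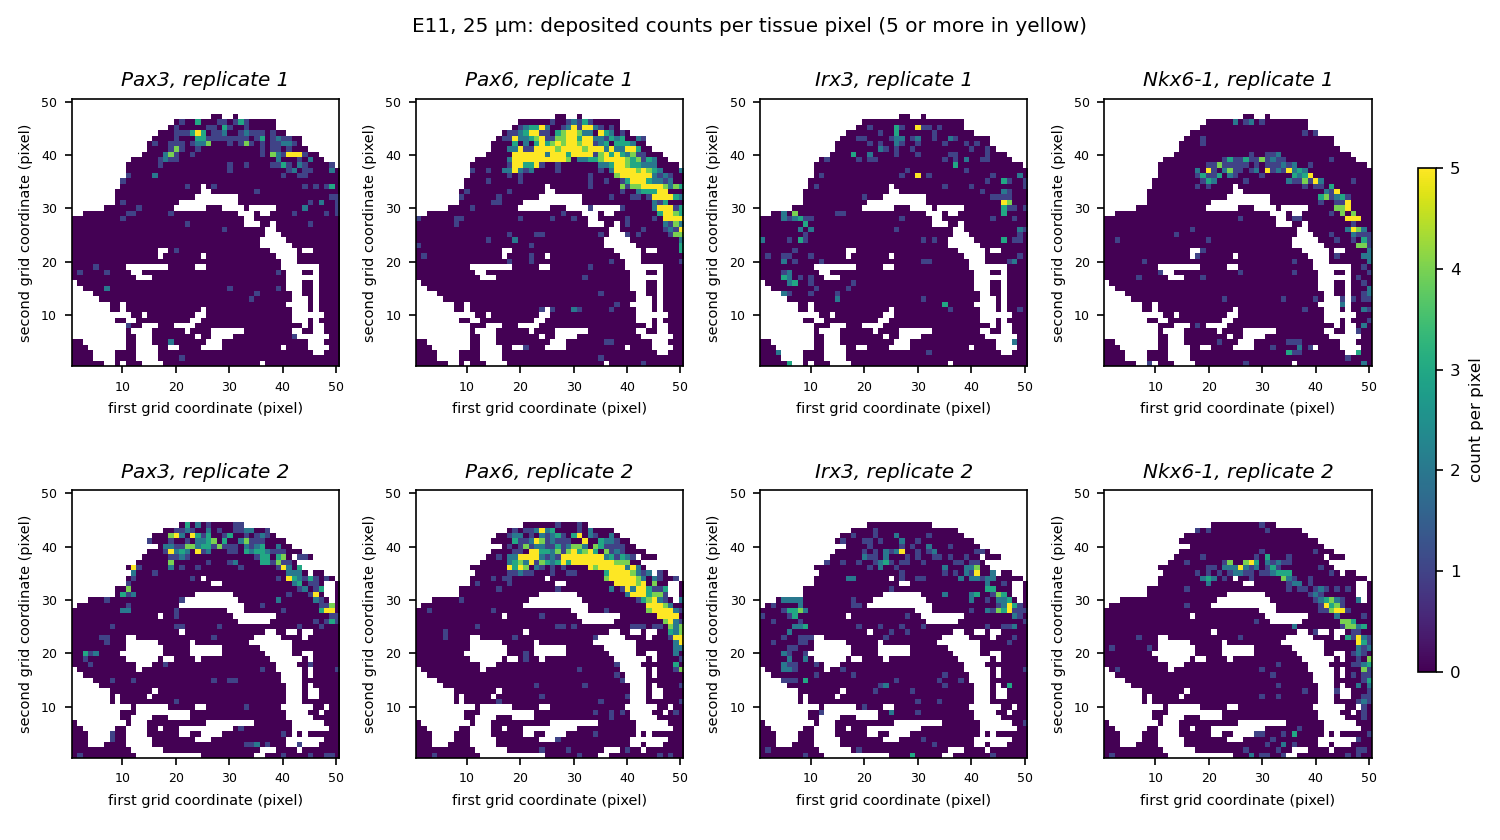
Deposited counts per tissue pixel of Pax3, Pax6, Irx3 and Nkx6-1 (colour, 5 or more in yellow) on the 50 by 50 grid of both E11 25 µm sections; the axes are grid coordinates in pixels and white is not tissue. Pax6 fills a curved band, Pax3 lies along its outer side and Nkx6-1 along its inner side, and Irx3 follows the band with a further patch at low first coordinates.

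Against all pixels outside it, the 3 dorsal factors were higher inside the Pax6 domain in both replicates. Pax3 was at 117 and 116 CPM inside against 16.8 and 24.9 CPM outside, Pax7 at 29.0 and 32.0 against 6.78 and 5.55 CPM, and Zic1 at 47.1 and 116 against 27.4 and 53.9 CPM. Irx3 was at 70.9 and 78.8 CPM inside against 34.2 and 26.0 CPM outside, and Dbx1 at 15.9 and 21.5 against 1.90 and 3.04 CPM. Nkx6-1 (109 and 67.3 against 49.7 and 32.8 CPM) and Olig2 (15.2 and 11.5 against 5.97 and 4.66 CPM) were higher inside as well. Against neural-rich pixels outside the domain alone, the factors parted. Pax3 was at 32.2 and 49.6 CPM there, Pax7 at 18.9 and 8.81, Irx3 at 34.04 and 16.5 and Dbx1 at 3.78 and 2.20 CPM, all below the domain. Zic1 was at 34.04 and 111 CPM there, in replicate 2 close to its 116 CPM inside. Nkx6-1 was at 200.5 and 132 CPM and Olig2 at 32.2 and 23.1 CPM, both above the domain. Nkx2-2 had 1 count inside the domain in each section and 13 and 25 counts outside it, which is 9.46 and 17.6 CPM in neural-rich pixels outside. Pancreas genes on a fixed list, which would mark another source of Nkx6-1 and Nkx2-2, were also higher in neural-rich pixels. They summed to 83.6 and 96.6 CPM in neural-rich pixels, in or outside the domain, and 9.20 and 8.75 CPM in other tissue pixels. Their part in these levels was not tested. With 2 libraries no test was made of these differences, and both sections gave the same direction for each.

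As a background, 166 and 148 heart-rich pixels outside the neural-rich ones (the 10% of tissue pixels with the highest share of 5 heart muscle genes) were read in the same sections. Pax6 was present in 0.602% and 2.70% of them, against 57.3% and 59.0% of neural-rich pixels. Nkx6-1 was present in 2.41% and 0% (0 of 148), against 27.9% and 33.0%. Pax3 was present in 0.602% and 2.70%, against 21.6% and 31.1%. Pax7 was in 0% and 3.38% against 6.34% and 12.0%, and Zic1 in 3.01% and 2.03% against 11.5% and 34.3%. Olig2 was in 0% and 0.676% against 5.63% and 7.45%. Median depth was 1602 and 2815 counts in heart-rich and 3950 and 7301.5 in neural-rich pixels.

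The order of the factors across the band was read as the offset of each neural-rich pixel from the middle of the Pax6 domain on its grid line, in pixels, counted positive towards the higher second coordinate, which is the outer edge of the tissue. The measure was chosen after the maps were seen. It used 33 grid lines and 323 and 321 pixels within 8 steps. Zic1 lay at a mean offset of 1.24 and 1.68 in the 2 sections, Pax3 at 1.41 and 1.22 and Pax7 at 1.02 and 1.30. All were outside the middle, by about 1 pixel. Dbx1 was at -0.19 and 0.19, Irx3 at 0.01 and -0.19 and Pax6 itself, which set the middle, at -0.19 and -0.02. Nkx6-1 was at -3.45 and -3.04 and Olig2 at -3.93 and -3.39, on the inner side. Nkx2-2 was in fewer than 10 such pixels in replicate 1, and in replicate 2 its 12 pixels lay at a mean of -4.58.

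Over 9951 genes the mean offset was -0.77 in the median and its 5th and 95th percentiles were -1.70 and -0.09. Against that background each dorsal factor was at the 99.8th percentile, Irx3 at the 94.96th, Pax6 at the 94.7th, Dbx1 at the 96.5th, and Nkx6-1 and Olig2 at the 0.372nd and 0.201st. Of the floor plate genes, Foxa2 lay further in than Olig2 and Nkx6-1, at -4.71, Shh, the floor plate signal, lay between them at -3.32, and Ntn1 was at -2.62. On the other side, further out than the dorsal factors, were Olig3, a dorsal progenitor factor, at 3.46, Zic5 at 2.67 and Msx1 at 2.24. The inner and outer sides of the band thus carried floor plate and roof plate side genes respectively.

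In 7 bands of offset the borders can be read directly. From the innermost band outwards Nkx6-1 was at 352, 373, 92.4, 0, 10.3, 16.4 and 18.3 CPM in replicate 1 and at 200, 222, 71.7, 19.1, 14.0, 14.6 and 0 CPM in replicate 2. Pax3 was at 14.8, 3.30, 69.3, 186, 198, 175 and 91.6 CPM in replicate 1 and at 12.3, 14.7, 53.3, 168, 194, 187 and 108 CPM in replicate 2. In both sections Pax3 was above Nkx6-1 from the central band outwards and below it further in. The band between 0.5 and 2.5 pixels inside the middle of the Pax6 domain was the only one where both were above 50 CPM. Pax6 peaked in the same band, at 1439 and 607 CPM, and fell on either side to 66.7 and 40.0 CPM innermost and 220 and 86.4 CPM outermost. Irx3 stayed between 49.1 and 96.2 CPM over the 5 bands from the second in replicate 1 and was at 7.41 CPM innermost. In replicate 2 it was highest in the central band (107 CPM) and lowest in the innermost (24.6 CPM).

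**Figure D5:**
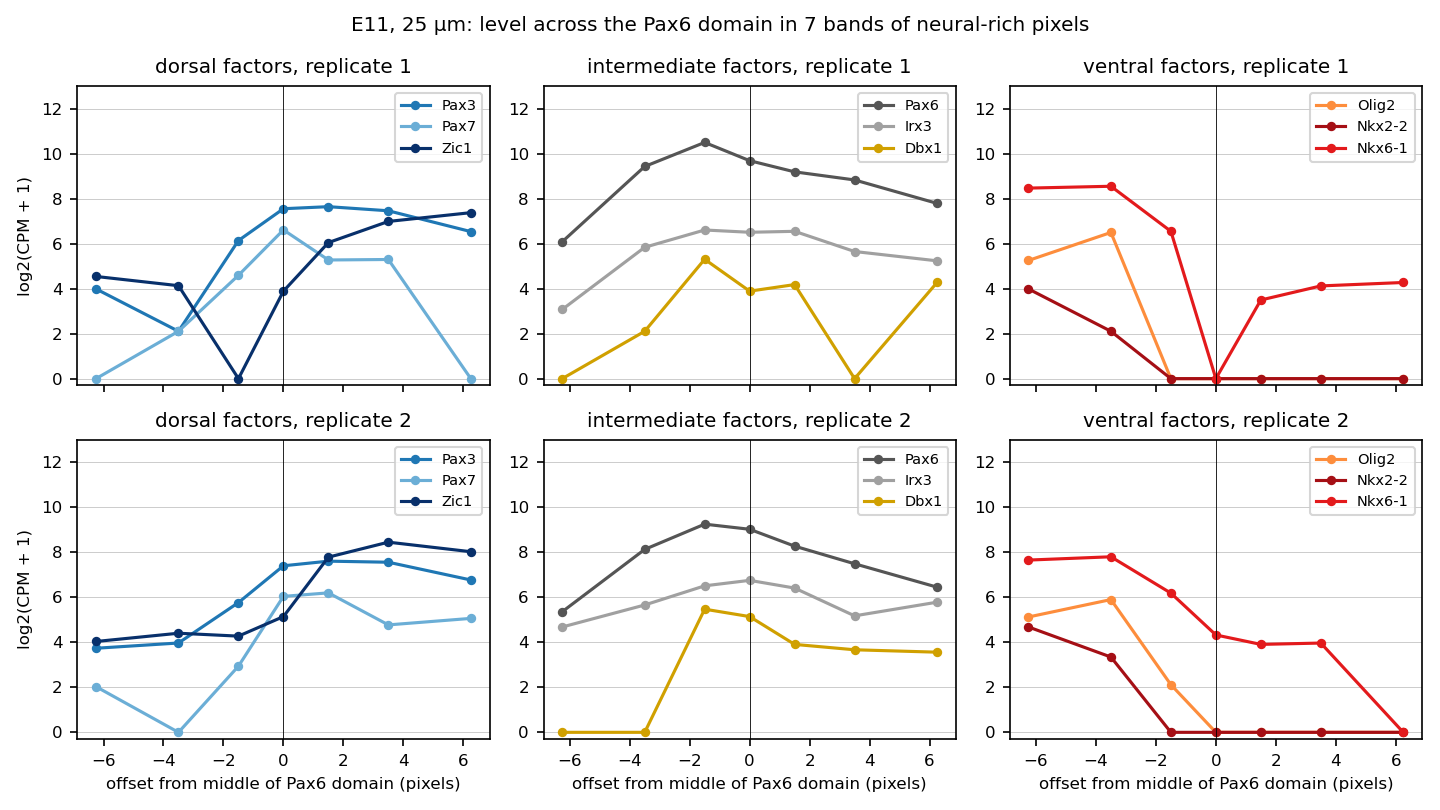
Level as log2(CPM + 1) (vertical axis) in 7 bands of neural-rich pixels by offset from the middle of the Pax6 domain (horizontal axis, in pixels, outer edge to the right), for both E11 25 µm sections. Nkx6-1 falls from 373 and 222 CPM in the second band to 0 and 19.1 CPM at the middle, where Pax3 stands at 186 and 168 CPM; points at 0 are bands with no count.

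The same order was looked for in libraries where at least 10 neural-rich pixels held a marker and at least 10 held the factor. At most 5 libraries allowed this for the mean distance on the grid to pixels with the floor plate markers Shh or Foxa2. Pixels with Nkx2-2 were nearer to them than neural-rich pixels without it in 3 of 3 libraries (median over libraries of the difference in mean distance, -1.90 grid steps), those with Nkx6-1 in 5 of 5 (-1.77) and those with Olig2 in 5 of 5 (-0.97). Pixels with Dbx1 were nearer in 4 of 4 (-0.81) and those with Pax7 in 4 of 4 (-0.28), while Pax3 (0.13, nearer in 2 of 5) and Zic1 (-0.09, 3 of 5) showed no common direction by mean distance. Nor did Pax6 (-0.58, nearer in 3 of 5) and Irx3 (-0.58, 3 of 5). Several of these values depend on using means: by median distance Pax7 differed by 0, 0, 0 and 0.41 steps, so it was nearer in no library. With Shh pixels alone its mean distance was nearer in 3 of 4. By median distance Olig2 was nearer in 3 of 5, with 0 in E10 50 µm replicates 1 and 3. Dbx1 also differed by 0 steps in E10 50 µm replicate 1 by that measure. By median, Pax3 differed by 0.91 and 0.41 in E10 50 µm replicates 1 and 3 and by -0.07 in E10 10 µm replicate 1. At E11 25 µm it differed by 0.24 and 0.41. Zic1 differed in the same libraries by 0.83, 0, 0.63, 0.24 and 1, so both were mostly farther. With Shh pixels alone, Pax3 was at 0 in E10 50 µm replicate 3 and both E11 25 µm sections. Zic1 was then at 0 in E10 50 µm replicate 3 and E11 25 µm replicate 1. To roof plate marker pixels (Wnt1, Wnt3a, Gdf7 or Lmx1a), those with Pax7 were nearer in 5 of 5 libraries (-1.83), Pax3 in 6 of 6 (-1.63) and Zic1 in 6 of 7 (-1.15). Olig2 (-0.0089, nearer in 3 of 6) and Nkx6-1 (-0.16, 4 of 6) showed little difference by mean distance, while Nkx2-2 was nearer in 2 of 3 (-1.89). By median distance Nkx6-1 differed by 0.82, 0.55 and -0.24 steps at E10 50 µm and by -1.62 in E10 10 µm replicate 1. At E11 25 µm it was farther by 1.53 and 1.47. Olig2 differed in the same libraries by 0.24, -1.59, 0.24, 0.099, 0.5 and 0.44, so both were farther in most. Being nearer to roof plate pixels was not limited to dorsal factors: Pax6 was nearer in 6 of 7 (-0.44), Irx3 in 5 of 6 (-0.98) and Dbx1 in 3 of 4 (-0.90). A pixel that held both the factor and a marker counted as a distance of 0. In E10 50 µm replicate 3 the median distance of Nkx2-2 pixels was 0 to floor plate and to roof plate markers. Pixels with a factor were also mostly deeper, those with Nkx2-2 by a median of 1.45 times, and the part of depth in these distances was not tested. Distances are in grid steps from pixel to pixel, and pixels were 10, 25 or 50 µm wide, depending on the library. The labels do not give the spacing between pixels, so steps were not turned into lengths.

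Across all libraries, Pax6-positive neural-rich pixels (1436 in 10 libraries) were compared with 2346 Pax6-negative ones. Pax3 was at 1.38 to 145 CPM in the former (median 99.8) and 0 to 96.1 CPM in the latter (median 40.4). It was higher in 9 of 10 libraries (log2 fold change 0.81, SE 0.20, adjusted p = 0.0366). Nkx6-1 was at 2.76 to 146 CPM against 7.00 to 200 CPM and lower in 8 of 10 (-0.60, SE 0.17, adjusted p = 0.0488). The genes called were 2.86% of 9188, 0.751% higher and 2.11% lower. Irx3 (0.74, adjusted p = 0.0606), Pax7 (0.47, 0.487) and Zic1 (0.09, 0.778) were not called, and Dbx1, Olig2 and Nkx2-2 were too sparse. Both calls were close to the threshold: leaving out a library, Pax3 stayed called in 3 of 10 fits (adjusted p from 0.00194 to 0.118) and Nkx6-1 in 2 of 10 (0.00261 to 0.211). Pax3 was lost without E10 50 µm replicate 1 or 2, E10 10 µm replicate 1 or 2, E11 25 µm replicate 1 or 2, or E11 10 µm replicate 1. Nkx6-1 was lost in every such fit except those without E10 50 µm replicate 3 or E12, and DESeq2 did not call it (adjusted p = 0.154).

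The 5 largest increases in Pax6-positive pixels were Wnt7b, a WNT ligand (1.08), Phyhipl (0.96), Pus1 (0.95), Pax3 itself and Dmrta2, a forebrain and interneuron factor (0.79), and the 5 largest decreases were muscle genes: Ttn (-1.57), Myh6 (-1.43), Tagln (-1.26), Acta2 (-1.23) and Myh7 (-1.17). Of the fixed lists, 5 of 5 heart muscle and 3 of 5 mesenchyme genes were lower in Pax6-positive pixels. The progenitor panel moved both ways, with Pou3f3 higher (0.47) and Nes lower (-0.47), and Gli3 was higher (0.48) among 3 intermediate genes tested. Pax6-positive pixels were deeper in 10 of 10 libraries, by a median of 1.78 times; the part of depth and of non-neural transcripts in these results was not tested.

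The genes whose level followed each factor most closely over tissue pixels were taken by the mean over libraries of Pearson's r, as a description, since pixels share a library and its depth. For Pax3 they were Msx3 (0.24, 8 libraries), Scube2 (0.18), Dtx4 (0.16), Pax7 (0.16) and Celsr2 (0.16), and for Pax7 Pax3 (0.16, 7 libraries), Scube2, Pou3f2, Dtx4 and Msx3. For Zic1 they were Zic4 (0.20, 10 libraries), which overlaps it, Zic5 (0.13), Msx3 (0.13) and Hoxb9 (0.10). Pax6 was most like Scube2 (0.28, 6 libraries), Sox2 (0.25, 10 libraries), Ckb, Syt11 and Ptprz1. Irx3 was most like Scube2 (0.10) and Irx5 (0.09), followed by Pax7, Pax3 and Pou3f2, and Dbx1 most like Pou3f2 (0.12), Pax6 (0.11), Hes5, Irx5 and Tfdp2. Olig2 went with Ptprz1 (0.10), Dlx1, Ckb and Dlx2, among which Dlx1 and Dlx2 are forebrain genes. Nkx6-1 went with Chl1 (0.12), Glra1, Adgra1, Neurod4 and Moxd1, and Nkx2-2 was in too few libraries. These r are low in sparse counts, and no gene is called particular to a factor from them.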

How the data were processed

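For each of the 11 transcript libraries the authors deposited raw whole-number counts by gene and pixel, with pixels named by grid position per the file headers. The submitters' processing notes name CASAVA 1.8.2 and the build GRCh38, a human build, for these mouse samples. The aligner, annotation, strand setting and handling of molecular identifiers are not given in the sources used here. The 4 antibody libraries were not analysed here. Counts were summed over tissue pixels, or over pixel classes of at least 10 pixels, per library. The sums were tested with edgeR 4.0.16 (TMM, filterByExpr, robust quasi-likelihood test, Benjamini-Hochberg over all genes, adjusted p below 0.05) in R 4.3.3, with the library as a block where classes of 1 library were compared. DESeq2 1.42.0, other filters, thresholds and left-out libraries were alternatives. Maps, ratios and offsets were computed with Python 3.11.15 and NumPy 2.4.6. The tests were run on simulated data first. The members and the gene lists were chosen with earlier results of these data known. Named genes were the 9 factors, list genes by count with up to 4 examples, the 5 largest called changes each way at 10 CPM or more, and the 5 genes most like each factor over 6 or more libraries. Some genes that this rule names are not reported here. Same-numbered E11 libraries share only a number.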

Additional observations from a re-analysis of the deposited data

Results flagged for a closer look

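In 49 sets of log2 ratios per library (CPM plus 1, pixels with a factor against pixels without), 14 sets had a library far from the others, where chance gives about 1 set in 20. These 14 values came from 5 libraries. The E12 library stood out in 4 sets. Its ratio was 2.65 for Pax6 in Pax3-positive pixels, 1.96 for Pax6 in Pax7-positive pixels, 2.16 for Pax6 in Nkx6-1-positive pixels and 1.33 for Zic1 in Pax6-positive pixels, each the highest. E11 10 µm replicate 1 stood out in 5: -5.72 for Zic1 in Pax3-positive, -4.54 for Pax3 in Zic1-positive, 0.63 for Zic1 and -1.99 for Pax6 in Irx3-positive, and -3.80 for Nkx6-1 in Olig2-positive pixels. E10 25 µm, the library with the lowest median depth, had -4.77 for Irx3 in Pax6-positive, -3.79 for Pax7 in Pax3-positive and -4.02 for Pax7 in Zic1-positive pixels. In the 2 E11 25 µm libraries, Pax3 in Olig2-positive pixels was at -6.58 in replicate 1 and Zic1 in Olig2-positive pixels at -2.93 in replicate 2, both on the side of lower dorsal factors. Several large negative values come from sets where a library had no count of the factor in the positive pixels. These were Zic1 and Pax7 in Pax3-positive, Pax3 and Pax7 in Zic1-positive, Irx3 in Pax6-positive, and Nkx6-1 and Pax3 in Olig2-positive pixels. A ratio from no count is set by the added 1, classes could be as small as 10 pixels, and the chance rate above does not allow for this.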

How the results depend on the processing

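Depth limits the sparse factors: Nkx2-2 and Dbx1 could not be tested in several comparisons, and counts of called factors are small. All 9 dorsal with ventral pairs stayed below 1 with 10 strata and after thinning, 8 did so over all tissue pixels or the top 50% of pixels, 7 with the top 10% and 6 with no strata. Thinning left few pixels with the sparse factors, so pairs with Nkx2-2 or Pax7 carry little weight there. Without a filter on low counts, 2 factors were called between E11 and E10, 3 between E12 and E10, 1 and 2 between widths at E11 and E10, 7 in neural-rich and 4 in Pax6-positive pixels. DESeq2 called 2, 2, 0 and 1 in the first 4 of these comparisons, 4 in neural-rich, 1 in Pax6-positive, 2 in Pax7-positive and 0 in Zic1-, Dbx1-, Olig2- and Nkx2-2-positive pixels. Without the replicate block (the library), 0 were called in the neural-rich, dorsal-class and Pax6-positive comparisons. A replicate number as block left 0 called between widths at E11, where same-numbered libraries deviated with a correlation of 0.09 over 15236 genes. With the top 10% of pixels, 1 was called in neural-rich, 1 in Pax6-positive, 0 in Pax7-positive and 0 in Dbx1-positive pixels, and with the top 50%, 2 in dorsal-class, 1 in Pax6-positive, 2 in Pax7-positive, 3 in Irx3-positive, 0 in Nkx2-2-positive and 2 in Nkx6-1-positive pixels. The Pax6 domain of replicate 2 held 92.1% of counts with 3 neighbours required and 91.2% with joining by edges. Leaving out each library in turn, counts of called factors ranged from 0 to 2 between E11 and E10, 0 to 3 between E12 and E10, 0 to 4 between widths at E11, 0 to 1 between widths at E10, 0 to 2 in the dorsal-class and 0 to 2 in the Pax6-positive comparison. E10 25 µm and E12 are single libraries, so leaving them out gave no value for contrasts that need them. Uncalled values that changed sign were Zic1 between widths at E10 without a filter (-0.00497), Pax6 (-0.048, top 10%) and Dbx1 (0.25, top 50%) in Pax7-positive pixels, Nkx6-1 in Irx3-positive pixels (0.14 with DESeq2, 0.19 with the top 50%), Pax7 (-0.019, DESeq2) and Olig2 (0.0096, top 50%) in Dbx1-positive pixels, Zic1 in Olig2-positive pixels (0.027, top 50%), Irx3 in Nkx6-1-positive pixels (0.049, top 50%) and the offset of Dbx1 as a median (-0.5). With a library left out, log2 fold changes between E11 and E10 ranged from -0.043 to 2.37 for Pax3, -2.76 to 0.32 for Pax6, -0.85 to 0.94 for Irx3, -1.94 to 2.54 for Dbx1, -1.18 to 0.55 for Olig2 and -0.65 to 0.13 for Nkx6-1. Between widths at E11 they ranged from -5.15 to 0.21 for Pax7, -8.73 to 0.22 for Dbx1 and -2.84 to 0.63 for Olig2, and at E10 from -0.24 to 0.26 for Zic1, -0.84 to 0.78 for Pax6, -0.27 to 0.19 for Olig2 and -2.95 to 0.30 for Nkx2-2. The cause of these changes was not tested. The median offset and the ratios with a library left out were added after seeing the data.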
